A study of Mus musculus with 6 samples.

Results

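Fibroblast growth factor (FGF) ligands and receptors were examined in NIH/3T3 cells, a fibroblast line derived from mouse embryos. The members were chosen by name, with earlier results of these data known: the ligands Fgf2, Fgf7, Fgf10, Fgf18 and Fgf21, the receptor tyrosine kinases Fgfr1, Fgfr2 and Fgfr3, and the receptor-like gene Fgfrl1. These are 9 of the 54752 genes in the count table, and all 9 were matched. RNA was sequenced from 6 libraries, 2 in each of 3 groups. Cells of the vehicle group received PBS. Cells of the second group received 1 ng/ml TGF-β1, the cytokine used to drive fibroblasts into myofibroblasts, with DMSO, and cells of the last group received 1 ng/ml TGF-β1 with 5 μM BI6727 (volasertib), an inhibitor of the mitotic kinase PLK1. Treatment lasted 72 h in every group. The vehicle was PBS alone, so TGF-β1 and DMSO cannot be told apart in a comparison with it. NIH/3T3 is a single immortalized line, and nothing in the labels says whether the 2 libraries of a group came from separate cultures, so the p-values measure the spread between these libraries, which may be technical.

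FGFs are secreted proteins that bind receptor tyrosine kinases together with heparan sulfate on the cell surface. The active receptor phosphorylates the adaptor FRS2 and signals through RAS and ERK, and this signal is restrained by Sprouty, SPRED and DUSP proteins. FGF2 is a mitogen for fibroblasts and leaves the cell without a classical signal peptide, whereas FGF7 and FGF10 are made by mesenchymal cells and act mainly on epithelium through the IIIb splice form of FGFR2. FGF10 from lung mesenchyme is needed for lung budding and branching, FGF18 acts in cartilage and lung development, and FGF21 is an endocrine hormone that needs the coreceptor β-klotho. FGFRL1 binds FGFs but lacks the kinase domain.

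The libraries held 18362378 to 24452153 counted reads, and 18911 to 19891 genes had at least 1 read. All 9 fibroblast markers were present at 3 counts or more in every library, with a summed level of 7791 to 10425 CPM (normalized read counts, each divided by the scaled total of its library), while the 5 epithelial markers summed to 0.354 to 1.96 and the 5 endothelial and blood markers to 3.84 to 6.44. Among these, the epithelial markers Krt5, Epcam and Cldn7 and the endothelial marker Kdr had at most 1 count in any library. Krt14 had 3 and 4 counts in vehicle, 36 and 38 with TGF-β1 and DMSO, and 14 and 10 with BI6727, and was called higher with DMSO (edgeR adjusted p = 0.00457), having passed the filter on low counts only through TGF-β1 libraries. The endothelial marker Cdh5 had 0 and 11, 64 and 36, and 22 and 44 counts in the same order and was not called (edgeR adjusted p = 0.0262 with DMSO). Cd68 had 66 and 99, 52 and 59, and 55 and 77 counts, and Pecam1 4 and 5, 10 and 24, and 12 and 12, and neither was called. Cdh1 had 0 to 7 counts per library and Ptprc 0 to 9. Single fibroblast markers differed between the groups in both directions. Pdgfra was called lower than vehicle with DMSO and with BI6727 (log2 fold changes -1.86 and -1.78), Pdgfrb was called lower with BI6727 (-1.18), and Thy1 was at -0.90 and -0.99 without passing the fold threshold. S100a4 was at -1.01 and -1.21 and Col1a2 at -0.66 and -1.03, and neither was called. Col1a1 was at 0.68 and 0.03, Fn1 at 0.46 and 0.71, Vim at 0.29 and 0.15, and Col3a1 at 0.31 and -0.58, all without a call. The part of these markers in the results of the FGF genes was not tested. The 2 TGF-β1 with DMSO libraries stood further apart than the other pairs, with an SD of the log2 difference between replicates of 0.563, against 0.447 for vehicle and 0.449 for BI6727. By chi-square of the raw counts per degree of freedom, where genes with many counts weigh more, the gap was wider. It was 55.4 for these 2 libraries, against 6.05 for vehicle and 5.23 for BI6727. The fibroblast marker Fn1, for example, was at 2646 and 1078 CPM in these 2 libraries. Counts of exactly 2 were found for more genes (1495 to 1692 per library) than counts of exactly 1 (1032 to 1173), so floors based on counts may be too low. The cause was not tested.

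The promoters of the 3 members that fell under TGF-β1, Fgf7, Fgf10 and Fgfr2, are shown here because these genes moved in the same direction. Each line gives the 250 bases before a transcript start annotated in RefSeq (GRCm38.p6), in the direction of the gene, and capitals mark a searched motif. The Fgf7 window lies at chr2:126034408-126034657 on the + strand, the Fgf10 window at chr13:118714449-118714698 on the + strand and the Fgfr2 window at chr7:130266809-130267058 on the − strand. The Fgf10 and Fgfr2 windows lie inside the spans of their genes given below. Transcripts with an earlier start are therefore annotated for both, and their promoters are not shown.
Fgf7: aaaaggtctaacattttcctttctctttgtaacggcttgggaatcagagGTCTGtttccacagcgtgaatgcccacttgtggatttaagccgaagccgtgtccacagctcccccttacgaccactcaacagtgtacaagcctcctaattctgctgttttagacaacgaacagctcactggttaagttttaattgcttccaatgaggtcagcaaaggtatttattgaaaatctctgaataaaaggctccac
Fgf10: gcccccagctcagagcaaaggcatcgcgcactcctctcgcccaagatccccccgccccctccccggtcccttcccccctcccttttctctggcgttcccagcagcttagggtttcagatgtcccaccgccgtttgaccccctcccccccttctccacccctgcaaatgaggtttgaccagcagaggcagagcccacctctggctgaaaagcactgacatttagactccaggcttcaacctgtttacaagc
Fgfr2: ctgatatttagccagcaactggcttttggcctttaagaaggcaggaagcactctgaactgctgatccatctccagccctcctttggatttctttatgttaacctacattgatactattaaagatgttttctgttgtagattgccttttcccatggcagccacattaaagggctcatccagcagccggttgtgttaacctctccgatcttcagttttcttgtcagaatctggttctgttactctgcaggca
The motifs searched on both strands were the SMAD box CAGAC, the SMAD palindrome GTCTAGAC, the AP-1 site TGANTCA and the E-box CAGGTG. Fgf7 held a single CAGAC, read on the opposite strand as GTCTG from base 201 to base 197 before the start, and the Fgf10 and Fgfr2 windows held none of the 4. The window before the RefSeq start of Fgf2, the member that rose, lies wholly within annotated Gencode exons, and held a CAGAC from base 205 to base 201 before the start. CAGAC was also found in the windows of Fgf18 and Fgf21, which were not called. CAGAC occurred in 42.19% of 32851 promoter windows of this length, GTCTAGAC in 0.17%, TGANTCA in 6.75% and CAGGTG in 17.22%. GC content was 43.6% for Fgf7, 44.0% for Fgfr2 and 61.2% for Fgf10, around a median of 52.4% for all windows. A window was found for 8 of the 9 members.

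The first comparison, TGF-β1 with DMSO against vehicle, asked which genes respond to the cytokine. Among the ligands, Fgf2 rose 4.64-fold while Fgf7 fell to a level 3.54-fold lower and Fgf10 to a level 6.56-fold lower. Among the receptors, Fgfr2 was 2.55-fold lower, and neither Fgfr1 nor Fgfrl1 passed the threshold. Calls required a fold change above 2 and, from the quasi-likelihood test of edgeR, a Benjamini-Hochberg adjusted p below 0.01. Of the 9 members, 7 passed the filter on low counts, 1 was called higher and 3 were called lower. Across all 14604 genes tested, 2.75% were called higher and 3.23% lower. By the weaker criterion that the groups did not overlap, 3 members were higher and 3 lower, against 28.7% and 31.8% of all genes tested. In bulk RNA, fewer cells making a transcript and less transcript per cell cannot be told apart.

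Fgf10, the mesenchymal ligand of branching epithelium, showed the largest fold change among the called members. Its levels in normalized CPM were 62.4 and 54.8 in the vehicle libraries, 10.8 and 7.01 with TGF-β1 and DMSO, and 8.10 and 6.79 with TGF-β1 and BI6727. Both vehicle libraries lay above all 4 TGF-β1 libraries, and the 2 TGF-β1 groups overlapped. The group means were 58.6 ± 5.37, 8.92 ± 2.71 and 7.44 ± 0.926 CPM (SD, n = 2), and the log2 fold change with DMSO was -2.71 (SE 0.214, edgeR adjusted p = 8.64e-05). Fgf10 lies at chr13:118669791-118792115 (mm10, + strand), and 2.67% of its exonic length is shared with the antisense gene Gm16263, which had at most 10 counts in any library.

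Fgf7, also known as keratinocyte growth factor, was the most abundant ligand per exonic length in every group, although in CPM it lay below Fgf2 in DMSO replicate 1. It reached 375 and 318 CPM in the vehicle libraries, 90.4 and 105 with DMSO, and 111 and 109 with BI6727. The vehicle libraries were again highest, and the 2 BI6727 libraries were slightly above both DMSO libraries. The means were 346 ± 40.5, 97.8 ± 10.5 and 110 ± 1.57 CPM (SD, n = 2), with a log2 fold change of -1.82 under DMSO (SE 0.127, edgeR adjusted p = 4.82e-05). The gene lies at chr2:126034658-126091185 (mm10, + strand), and no exon of another gene overlaps it.

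Fgf2, the fibroblast mitogen, moved the other way. Its levels were 19.3 and 24.9 CPM in the vehicle libraries, 110.7 and 94.8 with DMSO, and 85.8 and 91.9 with BI6727. Every TGF-β1 library exceeded both vehicle libraries, and the 2 DMSO libraries lay above the 2 BI6727 libraries. The means were 22.1 ± 3.95, 103 ± 11.3 and 88.9 ± 4.31 CPM (SD, n = 2), and the log2 fold change with DMSO was 2.22 (SE 0.153, edgeR adjusted p = 4.66e-05). Fgf2 lies at chr3:37348346-37410108 (mm10, + strand). Of its exonic length, 9.44% is shared with the antisense gene Nudt6 and 3.76% with the predicted gene Gm43439. Whether reads were counted by strand is not given in the sources used here. Nudt6 had 30 to 51 counts per library and Gm43439 had 0, with 382 to 2320 for Fgf2. The part of the overlap in the Fgf2 counts was not tested.

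**Figure D1:**
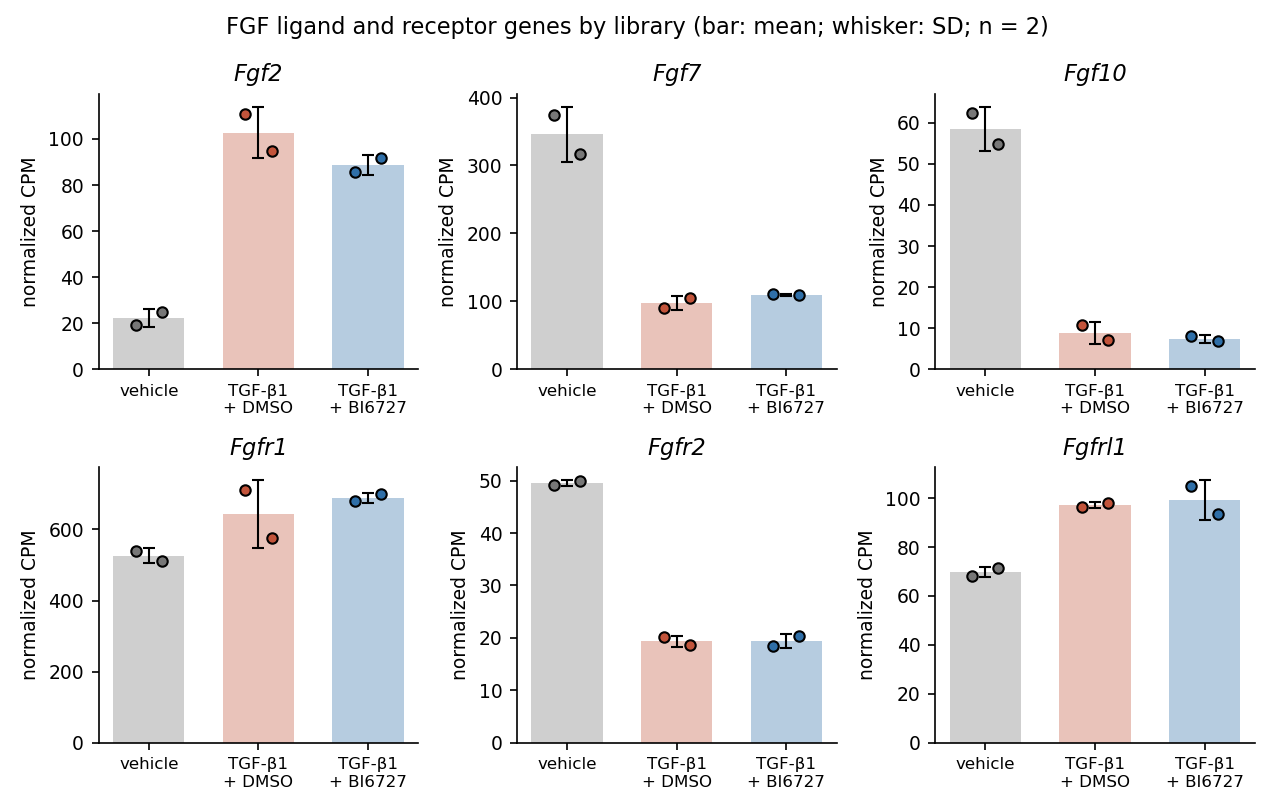
Normalized CPM (vertical axes, starting at 0) of the 6 members with appreciable counts in the vehicle, DMSO and BI6727 groups. Points are single libraries, bars the group means and whiskers the SD (n = 2). Fgf7, Fgf10 and Fgfr2 are highest in the 2 vehicle libraries, and Fgf2 is lowest there.

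Among the receptors, Fgfr2, whose IIIb form is the receptor of FGF7 and FGF10, was also lower with TGF-β1. It was at 49.1 and 49.9 CPM in the vehicle libraries, 20.1 and 18.6 with DMSO, and 18.4 and 20.4 with BI6727. The vehicle libraries stood apart and the 4 TGF-β1 libraries could not be separated by group. The means were 49.5 ± 0.594, 19.4 ± 1.07 and 19.4 ± 1.38 CPM (SD, n = 2), with a log2 fold change of -1.35 under DMSO (SE 0.129, edgeR adjusted p = 2.22e-04). Counts per gene do not separate the IIIb and IIIc splice forms, so which form these cells made is not known. Fgfr2 lies at chr7:130162451-133123350 (mm10, − strand), with 3.04% of its exonic length in Ctbp2 on the same strand. Ctbp2 had 654 and 730 counts in vehicle, 917 and 830 with DMSO, and 916 and 1135 with BI6727, above the 335 to 499 counts of Fgfr2 in the TGF-β1 libraries, and its part in the Fgfr2 counts was not tested.

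Fgfr1, the principal FGF receptor of fibroblasts, was the most abundant receptor. It was at 541 and 512 CPM in the vehicle libraries, 711 and 575 with DMSO, and 680 and 699 with BI6727. All TGF-β1 libraries were above both vehicle libraries, but the 2 DMSO libraries differed 1.24-fold from each other. The log2 fold change with DMSO was 0.29 (95% interval 0.0028 to 0.58, edgeR adjusted p = 0.139), which did not pass the threshold. Fgfr1 lies at chr8:25513654-25575718 (mm10, + strand).

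Fgfrl1, the kinase-free member, was at 68.3 and 71.3 CPM in the vehicle libraries, 96.2 and 98.1 with DMSO, and 105 and 93.4 with BI6727. The vehicle libraries were lower than all others and the TGF-β1 groups overlapped. Its log2 fold change of 0.48 (95% interval 0.23 to 0.72, edgeR adjusted p = 0.0159) was below the fold threshold and above the p threshold. Fgfrl1 lies at chr5:108692382-108706924 (mm10, + strand), with no overlapping gene.

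The remaining members were near the limit of detection. The floor, taken as 3 counts per library, corresponded to 0.123 to 0.165 CPM. Fgf18 had 0 and 2 counts in the vehicle libraries, 7 and 0 with DMSO, and 9 and 13 with BI6727, and it passed the filter on low counts through the BI6727 libraries. Fgfr3, a receptor of growth plate cartilage, had 6 and 0, then 0 and 2, then 6 and 12 counts, and Fgf21 had 0 and 2 counts in the vehicle libraries and 0 in the other 4. Fgfr3 and Fgf21 were not tested, and Fgf21 was at or under the floor in every library. Fgf18 lies at chr11:33117430-33147400 (− strand), Fgf21 at chr7:45613886-45615490 (− strand) and Fgfr3 at chr5:33721674-33737068 (+ strand) in mm10.

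Levels of different genes were compared per exonic length, as FPKM (counts per kilobase of exon and per scaled library total). In the vehicle group the order was Fgf7 (107 ± 12.5 FPKM), Fgfr1 (53.3 ± 2.05), Fgfrl1 (25.1 ± 0.763), Fgf10 (12.7 ± 1.17), Fgfr2 (4.79 ± 0.0575) and Fgf2 (3.26 ± 0.582), each mean and SD over 2 libraries, and no neighbors in this order overlapped. With TGF-β1 and DMSO the order became Fgfr1 (65.1 ± 9.69), Fgfrl1 (34.9 ± 0.480), Fgf7 (30.1 ± 3.23), Fgf2 (15.2 ± 1.66), Fgf10 (1.94 ± 0.588) and Fgfr2 (1.88 ± 0.104), of which the last pair overlapped. With BI6727 it was Fgfr1 (69.8 ± 1.41), Fgfrl1 (35.6 ± 2.95), Fgf7 (33.8 ± 0.484), Fgf2 (13.1 ± 0.636), Fgfr2 (1.88 ± 0.134) and Fgf10 (1.62 ± 0.201), with Fgfrl1 and Fgf7 overlapping. Fgf7 thus led the members in vehicle and stood below both Fgfr1 and Fgfrl1 in mean level with TGF-β1, and Fgf2 moved from below Fgf10 to above it.

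**Figure D2:**
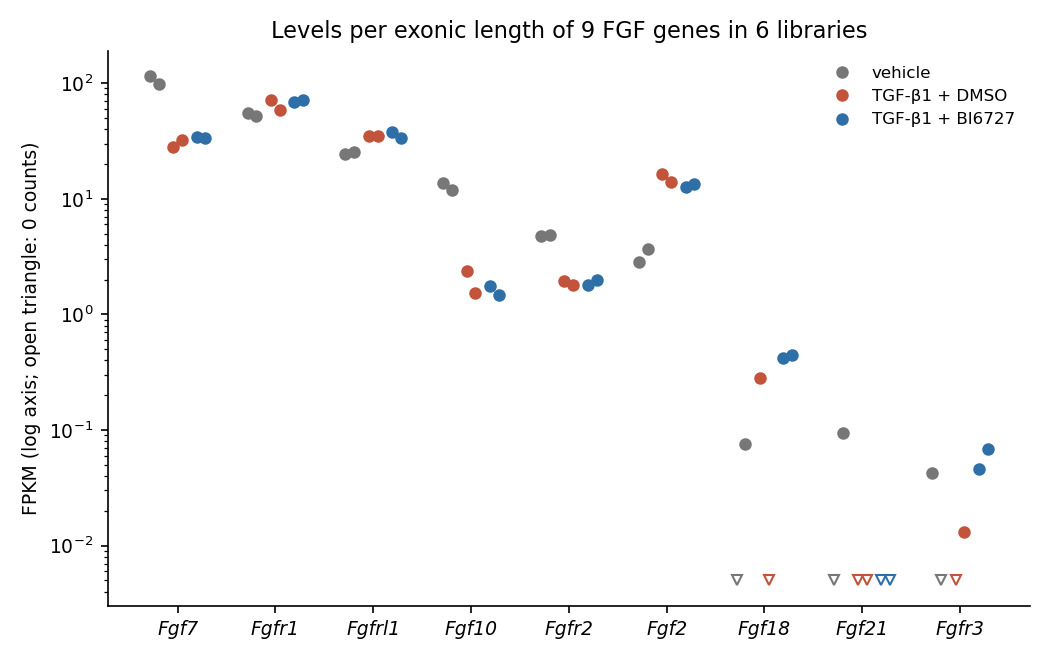
FPKM of the 9 members (vertical log axis) in the 6 libraries, with genes along the horizontal axis in the order of the vehicle group. Each point is a library, and open triangles at the bottom mark libraries with 0 counts. Fgf18, Fgf21 and Fgfr3 lie below 0.5 FPKM in every library.

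The balance of the ligands shifted accordingly. Per length, Fgf7 held 87.6% and 86.1% of the summed level of the 5 ligands in the vehicle libraries, 59.5% and 67.6% with DMSO, and 69.7% and 68.4% with BI6727. Fgf2 held 2.16% and 3.23% in vehicle, 34.9% and 29.2% with DMSO, and 25.8% and 27.7% with BI6727. Fgf10 went from 10.3% and 10.5% to 5.03% and 3.18% with DMSO and to 3.59% and 3.01% with BI6727. The ratio of Fgf7 to Fgf2 was 40.5 and 26.6 in the vehicle libraries and lay between 1.71 and 2.70 in the 4 TGF-β1 libraries. In read counts without regard to length, the mean share of Fgf2 was 5.25%, 49.0% and 43.0% in the 3 groups, so the size of the Fgf2 share depended on the scale and its direction did not.

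Among the 4 receptor tyrosine kinase genes, Fgfr1 held 91.9% and 91.4% of the summed FPKM in vehicle, 97.4% and 97.0% with DMSO, and 97.4% and 97.2% with BI6727. Fgfr2 held 7.98% and 8.52% in vehicle and 2.53% to 3.00% in the TGF-β1 libraries. Fgfr1 exceeded Fgfr2 by 10.7-fold to 11.5-fold in vehicle and by 32.3-fold to 38.5-fold with TGF-β1, with no overlap. Fgfr4 had 0 to 6 counts per library.

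The second comparison set TGF-β1 with BI6727 against TGF-β1 with DMSO and asked what PLK1 inhibition changed under the cytokine. None of the 7 tested members was called, and 0% of the 14604 genes were called higher and 0% lower by edgeR. At an unadjusted p below 0.05 there were 1041 genes, of which 0 were members, and DESeq2 called 0 genes higher and 15 lower. The log2 fold change was -0.21 for Fgf2 (95% interval -0.54 to 0.12), 0.17 for Fgf7 (-0.12 to 0.45) and -0.27 for Fgf10 (-0.77 to 0.24). For the receptors it was 0.10 for Fgfr1 (-0.19 to 0.39), 0.0046 for Fgfr2 (-0.29 to 0.30) and 0.03 for Fgfrl1 (-0.21 to 0.27). Leaving out Fgf18, which entered the test through its BI6727 libraries, groups did not overlap for 1 member that was higher with BI6727 (Fgf7) and 1 that was lower (Fgf2), against 17.4% and 17.7% of all genes tested. The edgeR adjusted p-values of the 6 genes ran from 0.808 to 0.997. Differences of up to the ends of these intervals remain compatible with the data, which for Fgf10 reach a fall of 0.77 on the log2 scale.

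Fgf18 and Fgfr3 had more counts with BI6727 than with DMSO. Summed over libraries, Fgf18 had 22 against 7 counts, with all 7 in DMSO replicate 1, and Fgfr3 had 18 against 2 counts. Fgfr3 was at 0.303 CPM in vehicle replicate 1, near the 0.330 CPM of BI6727 replicate 1. Fgf18 entered the test through its BI6727 libraries and Fgfr3 was not tested, so these counts are given as a description. In the test over libraries, the 95% interval of the log2 fold change of Fgf18 ran from -0.78 to 3.98 (edgeR adjusted p = 0.790).

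The third comparison, TGF-β1 with BI6727 against vehicle, shares its vehicle libraries with the first, so its values are given side by side and not as a second line of evidence. Again 1 member was called higher and 3 lower, with 2.51% of all tested genes called higher and 3.71% lower. Leaving out Fgf18, groups did not overlap for 3 higher and 3 lower members, against 35.8% of all tested genes in each direction. Fgf2 was 4.02-fold higher (log2 fold change 2.01, SE 0.152, edgeR adjusted p = 6.84e-05). Fgf7 was 3.15-fold lower (edgeR adjusted p = 6.93e-05), Fgf10 7.90-fold lower (5.79e-05) and Fgfr2 2.55-fold lower (2.02e-04). Fgfrl1 had a log2 fold change of 0.51 (edgeR adjusted p = 0.0115) and Fgfr1 of 0.39 (0.0576), and neither was called. Fgf18 had 22 counts with BI6727 against 2 in vehicle, given as a description because it entered the test through its BI6727 libraries. The test over libraries gave an edgeR adjusted p of 0.108.

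**Figure D3:**
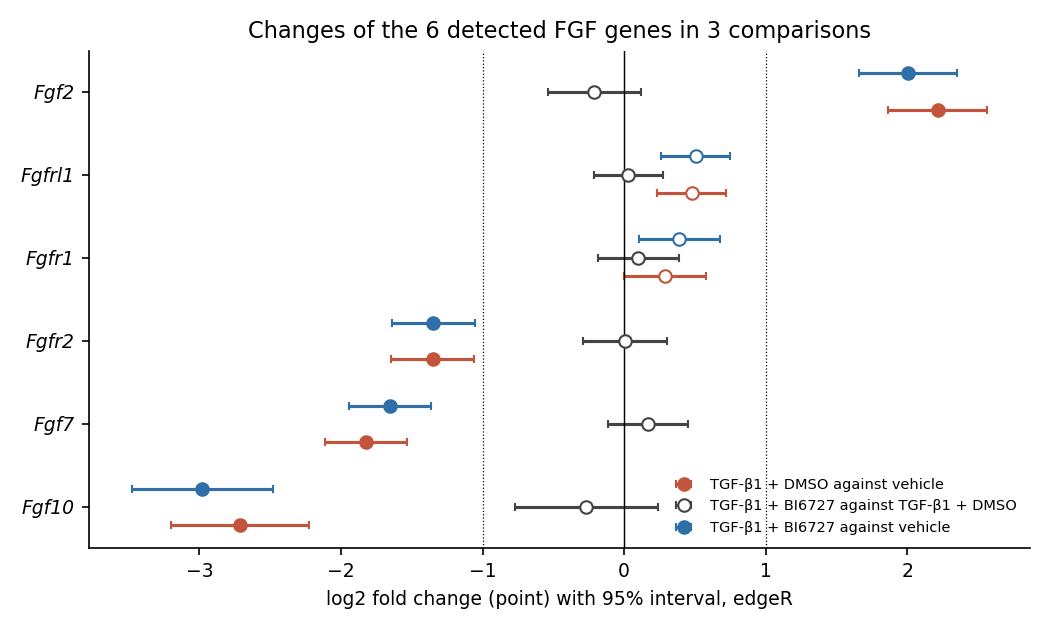
Log2 fold changes (horizontal axis) of 6 members in the 3 comparisons, with 95% intervals from edgeR as bars. Filled points passed the call threshold, open points did not, and dotted lines mark a 2-fold change. Both comparisons against vehicle place Fgf2 on the right and Fgf7, Fgf10 and Fgfr2 on the left of the dotted lines, and the intervals of all 6 genes between BI6727 and DMSO include 0.

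The 4 calls against vehicle did not rest on a single library. Without any 1 of the 6 libraries, including either of the 2 discordant DMSO libraries, the log2 fold change with DMSO stayed between 2.04 and 2.41 for Fgf2, between -1.94 and -1.70 for Fgf7, between -3.06 and -2.42 for Fgf10 and between -1.41 and -1.28 for Fgfr2, and all 4 remained called.

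Other genes of FGF signaling were described from 6 lists, also chosen with earlier results of these data known. The lists held 101 genes of the table, of which 76 were tested. With TGF-β1 and DMSO, 6 were called higher and 4 lower, against 2.75% and 3.23% of all genes tested, and the median log2 fold change was 0.043, against -0.011 for all genes tested. With TGF-β1 and BI6727, 9 were called higher and 6 lower than vehicle, against 2.51% and 3.71% of all genes tested, with a median of -0.018 against 0.0049. Of these called genes, Sulf1 and Fgf14 passed the filter on low counts only through the groups where they are high. Between BI6727 and DMSO, edgeR called 0 in either direction, as for all genes tested. An unadjusted p below 0.05 in edgeR was found for 6 of the 76, against 1041 of all 14604 genes tested.

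The other ligands and the fourth receptor were almost silent. Of 18 such genes, 2 were tested, and Fgf1, Fgf3, Fgf4, Fgf5, Fgf6, Fgf8, Fgf9, Fgf13, Fgf15, Fgf16, Fgf20 and the coreceptor Kl had 0 counts in all 6 libraries. Fgf14, an intracellular FGF homologous factor that modulates sodium channels, had 27 and 15 counts in the vehicle libraries, 3 and 4 with DMSO, and 0 and 0 with BI6727. Vehicle was at least 7.07-fold higher than BI6727 against a floor of 3 counts per library. Fgf14 passed the filter on low counts only through the vehicle libraries, where it is high, so its call with BI6727 (edgeR adjusted p = 0.00662, and 0.0743 without vehicle replicate 1) is given as a description.

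Of 13 tested carriers and coreceptors, 1 was called higher and 1 lower with DMSO (2.75% and 3.23% of all genes), and 3 higher and 2 lower with BI6727 (2.51% and 3.71%), against vehicle. Gpc6, a glypican that carries heparan sulfate, was at 24.3 and 23.2 CPM in vehicle, 7.64 and 5.13 with DMSO, and 6.50 and 7.81 with BI6727, for log2 fold changes against vehicle of -1.90 and -1.73 (edgeR adjusted p = 5.49e-04 and 8.03e-04). Ncam1, a neural cell adhesion molecule that binds FGFR, was at 18.7 and 19.1 CPM in vehicle, 51.5 and 32.9 with DMSO, and 47.7 and 53.3 with BI6727 (log2 fold changes 1.16 and 1.42, edgeR adjusted p = 0.00492 and 0.00175). Both genes separated vehicle from all TGF-β1 libraries. Only the comparison with BI6727 passed the threshold for Cdh2, encoding N-cadherin (0.99 with DMSO, 1.15 with BI6727), Fgfbp3, an FGF carrier (0.89 and 1.24), and Sdc4, encoding syndecan-4 (-0.85 and -1.06), and the differences between those values were not significant, with edgeR adjusted p-values of 0.835, 0.740 and 0.768.

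Of 11 tested heparan sulfate enzymes, 1 was called higher and 0 lower with DMSO (2.75% and 3.23% of all genes), and 1 higher and 1 lower with BI6727 (2.51% and 3.71%). Sulf1, a sulfatase that removes sulfate groups from heparan sulfate, had 4 and 4 counts in vehicle, 70 and 52 with DMSO, and 21 and 40 with BI6727. All TGF-β1 libraries were higher than vehicle and the DMSO libraries were higher than the BI6727 libraries, but the highest level was 3.34 CPM. The log2 fold changes were 3.89 with DMSO (SE 0.488, edgeR adjusted p = 9.57e-04) and 2.85 with BI6727 (adjusted p = 0.00549), and that between BI6727 and DMSO was -1.03 (edgeR adjusted p = 0.645). Sulf1 passed the filter on low counts only through the TGF-β1 libraries, where it is high. Its calls against vehicle, the only higher ones of this list, are therefore given as a description. Its relative Sulf2 had values of -0.91 with DMSO, which was not called, and -1.07 with BI6727, which was called lower (edgeR adjusted p = 0.00107).

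All 26 adaptors and signal relay genes were tested, and 1 was called higher and 1 lower with DMSO (2.75% and 3.23% of all genes). Map2k1, encoding the ERK kinase MEK1, was at 121 and 120 CPM in vehicle, 246 and 250 with DMSO, and 248 and 254 with BI6727 (log2 fold changes 1.04 and 1.06, edgeR adjusted p = 1.87e-04 and 1.62e-04). Pik3r1, a regulatory subunit of PI3-kinase, was at 131 and 132 CPM in vehicle, 46.4 and 32.2 with DMSO, and 41.2 and 41.9 with BI6727 (-1.74 and -1.66, edgeR adjusted p = 2.20e-04 and 2.50e-04). Neither group of TGF-β1 libraries overlapped vehicle for these genes. With BI6727, 2 genes of this list were called higher and 1 lower (2.51% and 3.71% of all genes), the additional gene being the adaptor Frs3 (0.64 with DMSO and 1.13 with BI6727, edgeR adjusted p = 0.00883 for the latter). Its relative Frs2 went the other way, with mean levels of 78.7 CPM in vehicle, 41.8 with DMSO and 49.1 with BI6727. The log2 fold changes of Frs2 were -0.91 and -0.68 (edgeR adjusted p = 0.00301 and 0.0111), and it was not called. Frs3 had mean levels of 4.05, 6.32 and 8.85 CPM.

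The list of feedback regulators held 11 tested genes, of which 1 was called higher and 0 lower against vehicle, both with DMSO (2.75% and 3.23% of all genes) and with BI6727 (2.51% and 3.71%). The called gene was Flrt2, whose product belongs to a family that binds FGFR and is known to promote rather than inhibit its signaling, and none of the inhibitors proper was called. Flrt2 was at 26.6 and 29.1 CPM in vehicle, 75.6 and 45.0 with DMSO, and 59.1 and 58.5 with BI6727 (log2 fold changes 1.11 and 1.08, edgeR adjusted p = 0.00848 and 0.00923). The Sprouty genes showed log2 fold changes with DMSO of 0.05 for Spry1, -0.03 for Spry2 and 0.07 for Spry4, Spred1 of -0.14 and Il17rd, encoding SEF, of -0.57, and none passed the threshold. Dusp6, the ERK phosphatase that serves as a readout of FGF signaling, was at 138 and 134 CPM in vehicle and at 182 to 203 in the TGF-β1 libraries. Its groups did not overlap, but the log2 fold changes of 0.48 and 0.57 (edgeR adjusted p = 0.0115 and 0.00492) were below the fold threshold.

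Of 13 genes that respond to FGF and ERK, 2 were called higher and 2 lower with DMSO (2.75% and 3.23% of all genes), and 2 higher and 1 lower with BI6727 (2.51% and 3.71%), while 9 and 10 did not pass the threshold. Dusp4, encoding a nuclear ERK phosphatase, was at 54.7 and 70.9 CPM in vehicle, 297 and 244 with DMSO, and 327 and 328 with BI6727 (log2 fold changes 2.10 and 2.38, edgeR adjusted p = 5.89e-05 and 3.24e-05). Dusp5, encoding another nuclear ERK phosphatase, rose from 23.8 and 21.1 CPM to 97.1 and 112 with DMSO and 96.5 and 101 with BI6727 (2.22 and 2.14, edgeR adjusted p = 1.96e-05 and 2.03e-05). The immediate early gene Fos fell from 28.2 and 11.3 CPM to 2.00 and 3.20 with DMSO and 3.41 and 4.21 with BI6727 (-2.92 and -2.36, edgeR adjusted p = 0.00245 and 0.00531), with the 2 vehicle libraries far apart. Of the ETS factors of this pathway, Etv1 fell with DMSO (-1.35, edgeR adjusted p = 8.71e-04) and had a value of -0.99 with BI6727. Etv4 was higher in both comparisons (0.91 and 0.58, edgeR adjusted p = 6.42e-04 and 0.00585) without overlap with vehicle. It was not called, because it was below the fold threshold. Etv5 (0.06 and 0.19, edgeR adjusted p = 0.771 and 0.383) was not called either.

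**Figure D4:**
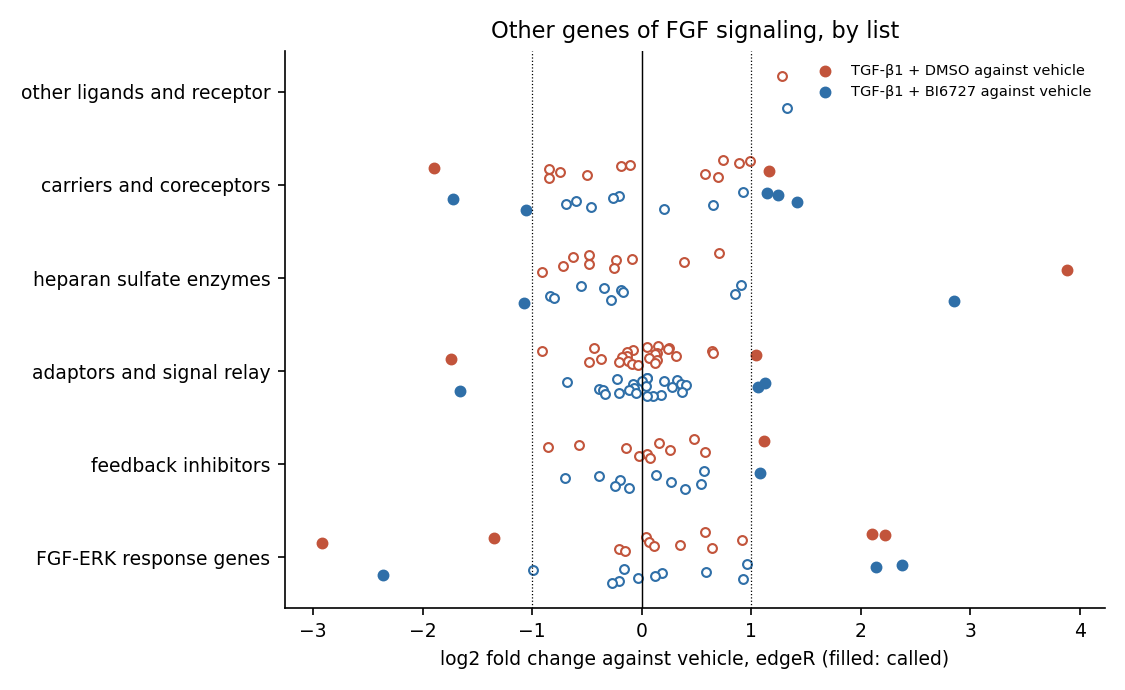
Log2 fold changes against vehicle (horizontal axis) of the tested pathway genes, grouped by list, in the comparisons with DMSO and with BI6727. Each point is a gene, filled points passed the call threshold, dotted lines mark a 2-fold change, and Fgf14 is left out because it was at 0 in both BI6727 libraries. Called genes lie on both sides of 0, with Sulf1 farthest to the right and Fos farthest to the left.

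Calls of the pathway genes depended on the libraries used. Without vehicle replicate 1, the calls with DMSO fell to 2 higher (Dusp4 and Dusp5) and 1 lower (Pik3r1), and these 3 genes were called in every setting with a library left out. With a library left out, the log2 fold change with DMSO stayed between 1.04 and 1.06 for Map2k1 and between -2.21 and -1.62 for Gpc6. That of Fos ran from -3.44 to -2.12.

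The genes whose pattern over the 6 libraries was most like that of the most changed ligand and receptor were found by the root mean square distance of log2 CPM, each gene centered on its mean, among 9708 genes with at least 10 CPM on average. Nearest to Fgf10 were Nr2f1, encoding a nuclear receptor (distance 0.0866), Gm2115 (0.147), the oncostatin M receptor gene Osmr (0.153), Cp, encoding ceruloplasmin (0.179), and the cytokine receptor gene Csf2rb (0.182), against a median distance of 1.37 for all candidates. Nearest to Fgfr2 were Celf2 (0.0736), Emilin2 (0.0746), Pam (0.0773), Jade2 (0.0778) and the lysophosphatidic acid receptor gene Lpar1 (0.0874), against a median of 0.656. With DMSO against vehicle, Nr2f1 had a log2 fold change of -2.70 and Celf2 of -1.39. These lie near the values of Fgf10 and Fgfr2 because the genes were chosen by their distance in the same libraries. These distances describe 6 libraries in 3 groups.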

How the data were processed

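Per the labels and the study's methods, NIH/3T3 RNA was depleted of ribosomal RNA and sequenced as single-end reads on a BGISEQ-500, and the authors aligned the reads with Subjunc and counted them per gene with featureCounts (Subread 1.6.4) on mm10 with a Gencode annotation. The deposited values are raw counts per gene for 6 libraries. The strand setting of the counting is not given in the sources used here.

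Gene symbols were matched for 54723 of 54752 identifiers. Counts were scaled by TMM and tested with edgeR 4.0.16 in R 4.3.3 (quasi-likelihood test, filterByExpr by group, a joint fit of the 6 libraries without covariates), which left 14604 genes. The filter of the study, 10 CPM in more than 3 samples, was an alternative, because it would drop Fgf10. It kept 5 members. With 2 libraries per group an exact permutation test cannot go below p = 0.333, so none is given. FPKM used the exonic length in the count table. The test was checked on simulated data with known changes. Alternatives were DESeq2 1.42.0 and its size factors, other filters and thresholds, only the 2 groups compared, offsets for gene length, a replicate block and each library left out. Swapped replicate numbers, the length offsets joined to the block, halved counts and ligand shares by count were added after seeing the data.

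The members and lists were chosen with earlier results of these data known. Named pathway genes were all those called in any comparison, plus Spry1, Spry2, Spry4, Dusp6, Spred1, Il17rd, Etv4 and Etv5. Frs2 was added as the relative of the called Frs3. Promoters came from RefSeq.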

Additional observations from a re-analysis of the deposited data

How the results depend on the processing

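The calls of Fgf2 (higher) and of Fgf7, Fgf10 and Fgfr2 (lower) against vehicle held in every alternative in which the gene was tested, in both comparisons, and Fgf10 was not tested under the filter of 10 CPM in more than 3 samples. With an adjusted p below 0.05 and no fold minimum, Fgfrl1 joined them, for 2 members called higher in each comparison against vehicle, and the pathway counts rose to 18 higher and 15 lower with DMSO and 19 higher and 14 lower with BI6727. The filter of the study left 2 pathway genes called lower with DMSO. With each library left out, pathway calls ranged from 2 to 7 higher and 1 to 11 lower with DMSO, from 3 to 9 higher and 1 to 6 lower with BI6727, and from 0 to 1 higher between BI6727 and DMSO. The lowest counts against vehicle were reached without vehicle replicate 1, and the 11 lower calls without DMSO replicate 1. Over all genes, the filter of the study gave 244 higher and 241 lower with DMSO and 223 and 282 with BI6727, and the looser threshold 1442 and 1610, and 1457 and 1759. With a library left out the counts ran from 148 to 587 higher and 162 to 848 lower with DMSO, and from 145 to 488 and 210 to 720 with BI6727. Between BI6727 and DMSO, no filter gave 6 higher and 41 lower, DESeq2 15 lower, length offsets 11 lower and length offsets with the block 14 lower, while leaving out a library gave 0 to 67 higher and 0 to 35 lower.

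The log2 fold change of Fgfr2 between BI6727 and DMSO, close to 0, turned negative with DESeq2 (-0.0080), its size factors (-0.0082), the filter of the study (-0.0039), length offsets (-0.0976) and length offsets with a replicate block (-0.0987). Other changes of sign occurred only with a library left out. With DMSO against vehicle the ranges were -3.17 to 4.85 for Fgf18, -0.15 to 0.26 for Spry1, -0.17 to 0.12 for Spry2, -0.019 to 0.18 for Spry4 and -0.051 to 0.19 for Etv5. Between BI6727 and DMSO they were -0.56 to 0.07 for Fgf10, -0.056 to 0.26 for Fgfr1, -0.070 to 0.074 for Fgfr2, -0.057 to 0.11 for Fgfrl1, -0.37 to 0.38 for Flrt2, -0.18 to 0.013 for Dusp5, -0.098 to 0.49 for Gpc6, -0.17 to 0.37 for Pik3r1, -0.037 to 0.62 for Ncam1, -0.23 to 0.057 for Spry2 and -0.22 to 0.71 for Il17rd. With BI6727 against vehicle it was -0.22 to 0.0056 for Spry2. The cause was not tested.

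No pairing by replicate number was seen: deviations of same-numbered libraries correlated at -0.037, -0.0585 and -0.00787 in the 3 comparisons. With 2 libraries per group, each value rests on a single difference within each group, so it cannot show that the libraries were unpaired. With the replicate number as a block, Fgf2 stayed called higher and Fgf7, Fgf10 and Fgfr2 lower against vehicle. Pathway genes called were 5 higher and 4 lower with DMSO and 6 higher and 4 lower with BI6727. The share of all genes called with the block is not given here, so these counts have no background beside them. With 2 libraries per group and 0 to 13 counts for Fgf18, Fgf21 and Fgfr3, changes of these 3 genes could not be resolved at this depth.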
